A study of Mus musculus with 3 samples.

Results

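Long intergenic noncoding RNA (lincRNA) regions were followed through the loss of Nr0b1 in mouse embryonic stem (ES) cells. Nr0b1, also called Dax1, is an X-linked orphan nuclear receptor of pluripotent cells. The members were the probes of a 1-colour Agilent mouse array whose description opens with the word lincRNA, followed by a stretch of the mm9 genome and a strand. They were 16251 of the 55681 probes apart from controls. The prefix was looked for first in the gene name column, where 0 probes carried it, so the description column was used in its place. A region on 1 strand is called an entry here: the 16251 probes made 4622 entries, 2324 forward and 2298 reverse, in 3555 regions, of which 1067 were probed on both strands. An entry had a median of 3 probes, from 1 to 10, each of 60 bases, and 12 entries also carried a transcript symbol. The regions had a median length of 7328 bp, and 1377 of the 4622 entries had a probe of an array gene inside their limits.

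The cells were male ES cells derived from the line EB5. The line was kept with or without fibroblast feeder cells, and which of these applied to the arrays is not given in the study's methods. In every group they carried a floxed Nr0b1 allele or what Cre had left of it, together with piggyBac transgenes that express the MerCreMer recombinase and Egfp constitutively. Nr0b1 fl-/Y ES cells without 4-hydroxy tamoxifen (Tx), the drug that activates MerCreMer, still held exon 2 of Nr0b1 (fl/Y -Tx). The same cells cultured with Tx for 4 days formed the fl/Y +Tx group. Nr0b1 KO/Y ES cells were taken several passages after the deletion. The study established its KO/Y lines from isolated colonies. In fl/Y +Tx over fl/Y -Tx, exposure to Tx and loss of Nr0b1 cannot be told apart. In KO/Y over fl/Y +Tx, time after the deletion, recent exposure to Tx and colony isolation cannot be told apart. In KO/Y over fl/Y -Tx, loss of Nr0b1 and colony isolation cannot be told apart. Each group had 3 arrays, which the study describes as biological triplicates, and replicate numbers here are only the order of the arrays on the slides. Slide 1 held the 3 fl/Y -Tx arrays and 1 fl/Y +Tx array, and slide 2 held the other fl/Y +Tx arrays and the 3 KO/Y arrays, so in KO/Y against fl/Y -Tx slide and group cannot be told apart except through the fl/Y +Tx arrays.

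LincRNAs are transcripts made outside protein-coding genes, usually capped, spliced and polyadenylated like messenger RNA but without a long open reading frame. Many were found in ES cells from chromatin marks of promoters and transcribed bodies, which is how stretches of the genome became probe targets with no gene name. Some act on the chromosome they come from, as Xist does in X inactivation, and others are retained in the nucleus, as Malat1 and Neat1 are. Many such regions contain copies of retroviral elements or gene families, so that a probe can match several places.

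The probes of the regions that moved most show this repetition. The largest falls between fl/Y +Tx and KO/Y ES cells included 4 chromosome X regions read by probes that are shifted copies of each other. Each sequence is given as deposited, 5′ to 3′, and capitals mark the longest run of bases shared with the first.
Region chrX:120590872-120598071, reverse: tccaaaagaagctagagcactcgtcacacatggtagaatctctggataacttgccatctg
Region chrX:120353972-120361170, reverse: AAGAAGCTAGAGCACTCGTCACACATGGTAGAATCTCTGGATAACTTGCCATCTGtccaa
Region chrX:120812236-121038407, reverse: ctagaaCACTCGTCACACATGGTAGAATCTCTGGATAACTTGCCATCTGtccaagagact
Region chrX:122184810-122500048, forward: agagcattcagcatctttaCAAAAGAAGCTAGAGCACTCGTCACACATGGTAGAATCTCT
The shared runs were 55, 43 and 41 bases. Over the aligned bases the second probe had no substitution against the first, the third had G17A and the fourth had C2A, with positions counted from 1 at the 5′ end of the first probe. Transcripts of the 4 regions cannot be told apart by such probes, and they are described together, though counted as 4 entries.

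A pair of forward regions on chromosome 1, among the 3 largest rises in KO/Y over fl/Y -Tx, were also read by like probes, and so was a gene model, ENSMUST00000115934, placed on an unassigned piece of chromosome 1. Capitals mark the longest run shared with the first.
Region chr1:87343550-87362900: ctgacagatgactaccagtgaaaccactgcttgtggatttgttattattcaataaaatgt
Region chr1:85117750-85129200: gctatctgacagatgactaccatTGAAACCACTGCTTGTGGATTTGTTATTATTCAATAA
ENSMUST00000115934: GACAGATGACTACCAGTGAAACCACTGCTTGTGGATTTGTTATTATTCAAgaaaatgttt
The second region shared 37 bases in a row and differed by G18T over 55 aligned bases, and the gene model shared 50 and differed by T53G over 58. The probe shown for the second region is not the brighter one that was tested for it. Its own log2 fold change was 5.50 in KO/Y over fl/Y -Tx, and the tested one gave 4.97. The regions are counted as separate entries in what follows, but their probes may read the same transcripts.

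The remaining probes printed here read entries with single results. They are the largest fitted riser, a riser over the gene model Gm7104, a large faller on chromosome 13, a faller on chromosome X over Kis2, and TSIX. All are in lower case.
Region chrX:123303474-123305531, forward: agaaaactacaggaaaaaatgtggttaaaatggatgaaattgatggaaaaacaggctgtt
Region chr12:89092175-89105525, forward: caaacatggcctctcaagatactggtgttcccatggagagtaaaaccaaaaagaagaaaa
Region chr13:19611679-19620954, reverse: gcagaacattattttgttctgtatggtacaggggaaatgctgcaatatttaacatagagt
Region chrX:50087925-50101700, reverse: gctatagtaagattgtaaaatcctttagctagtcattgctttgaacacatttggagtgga
TSIX, chrX:100626855-100680296, forward: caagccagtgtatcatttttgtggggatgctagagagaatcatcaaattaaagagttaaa
The entry with the symbol NEAT2, an older name of Malat1, is read by the same 60 bases as the array's own Malat1 probe, here with all shared bases in capitals.
Malat1 gene probe: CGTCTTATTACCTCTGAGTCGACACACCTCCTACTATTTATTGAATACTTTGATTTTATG
Among all lincRNA probes, 644 shared a run of at least 25 bases with a probe of another lincRNA entry and 231 with a probe of another array gene. Of these, 79 had the same bases as a gene probe. In 42 such pairs both probes were measured, and their log2 fold changes differed by a median of 0.072 in fl/Y +Tx over fl/Y -Tx.

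Nr0b1 itself followed the labels. Its log2 signal, relative to the 75th percentile of each array, was 4.02 to 4.19 in fl/Y -Tx, -2.66 to -2.42 in fl/Y +Tx and not well above background in KO/Y ES cells, where it was at least 357-fold lower than in fl/Y -Tx. All 10 ES cell markers checked were detected, with a summed log2 level of 9.17 to 9.61 over all arrays and 0 of 10 called in any comparison. The summed level of 10 feeder fibroblast markers was 9.09 to 9.12 in fl/Y -Tx, 9.35 to 9.53 in fl/Y +Tx and 9.52 to 9.68 in KO/Y ES cells, with 1 of 10 called higher in KO/Y over fl/Y -Tx. Of 8 markers of 2-cell-like cells, 6 were tested, and their summed level was 3.21 to 3.45, 6.63 to 6.85 and 7.34 to 7.53 in the same order. All 6 were called higher in fl/Y +Tx and in KO/Y over fl/Y -Tx, and 3 of 6 in KO/Y over fl/Y +Tx. The 10 primitive endoderm markers summed to 2.78 to 2.80, 3.05 to 3.37 and 4.90 to 5.53, with 8 of 10 called higher in KO/Y over fl/Y +Tx and 9 of 10 in KO/Y over fl/Y -Tx. The part of these other cell types in the lincRNA results was not tested.

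Fewer lincRNA probes than other probes gave a signal well above background, as the scanning software calls it for each spot. The share of lincRNA probes ran from 34.8% on fl/Y +Tx array 2 to 43.2%, and that of the 39430 other probes from 58.7% to 64.9%. It lay below that of the other probes on each of the 9 arrays. On all 3 arrays of a group, 36.4% of lincRNA probes were detected in fl/Y -Tx, 33.4% in fl/Y +Tx and 35.5% in KO/Y ES cells, against 59.5%, 58.0% and 60.9% of other probes. Counted as regions with at least 1 detected probe, these were 2355, 2237 and 2334 of 3555, or 66.2%, 62.9% and 65.7%.

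**Figure D1:**
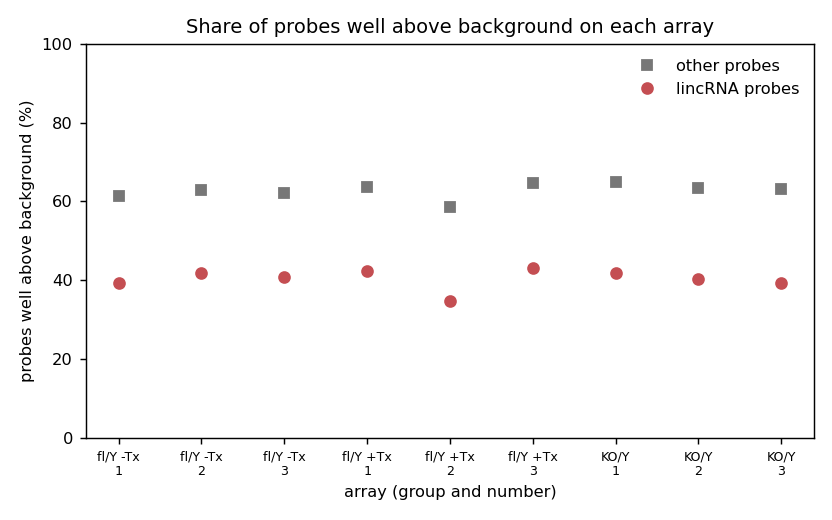
Share of probes well above background on each of the 9 arrays (vertical axis, percent), for the 16251 lincRNA probes and the 39430 other probes, with the arrays of a group side by side. The lincRNA shares lie between 34.8% and 43.2% and the other shares between 58.7% and 64.9%.

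Counted by probe, detection was higher where an array gene lay in the region on the same strand. Of the 3274 lincRNA probes of such entries, 43.0% were detected on all fl/Y -Tx arrays, against 34.5% of 2226 probes whose region held a gene only on the opposite strand and 34.8% of 10751 with none inside. In KO/Y ES cells these shares were 43.3%, 32.7% and 33.7%. Counted by entry, with at least 1 such probe, the order differed: 68.4%, 70.2% and 61.2% in fl/Y -Tx and 68.1%, 69.8% and 60% in KO/Y ES cells. Among the 1067 regions probed on both strands, both strands were detected in 582 regions of fl/Y -Tx, in 531 of fl/Y +Tx and in 559 of KO/Y ES cells, while 93, 132 and 109 regions were detected on neither. In each group more of these regions were detected on both strands than on 1 strand alone.

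Of the 4622 entries, 3089 had a probe well above background on all arrays of at least 1 group and were tested, together with 19247 other array names. An entry was called where limma's adjusted p was under 0.05 and the change over 2-fold. The lincRNA entries as a whole had medians close to those of the array: their median log2 fold change was -0.07 for fl/Y +Tx over fl/Y -Tx, 0.01 for KO/Y over fl/Y +Tx and -0.07 for KO/Y over fl/Y -Tx, beside -0.07, 0.01 and -0.06 over all 22336 names. The 3 comparisons share arrays, so their values are given side by side and are not independent.

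**Figure D2:**
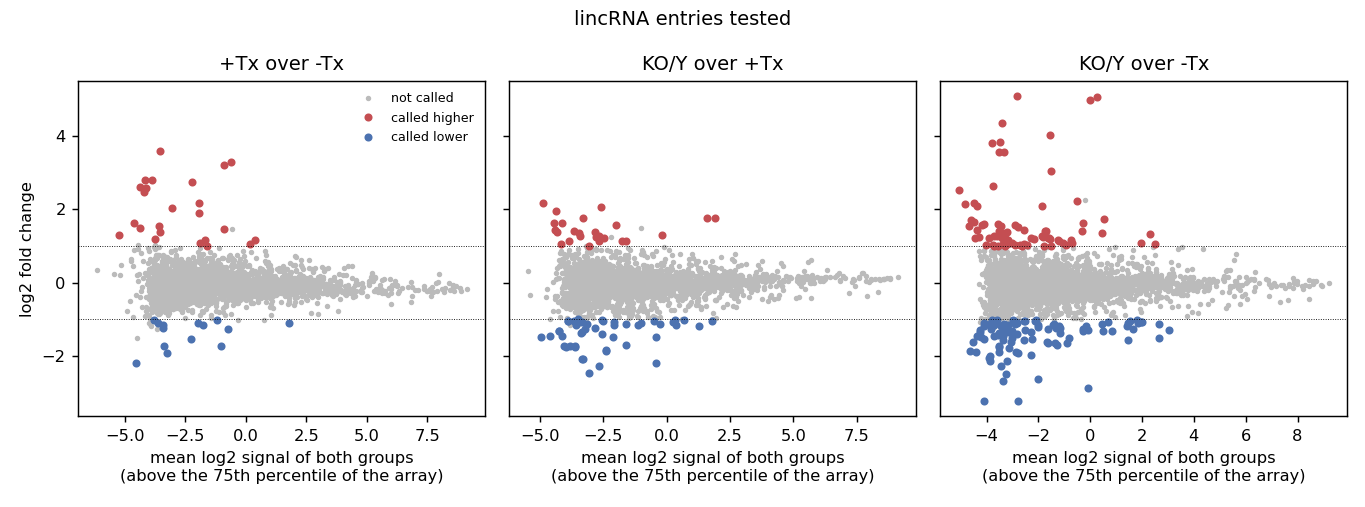
Log2 fold change of the tested lincRNA entries (vertical axis) against their mean log2 signal relative to the 75th percentile of each array (horizontal axis), with a panel for each comparison in the order of the text; coloured points are called and dotted lines mark a 2-fold change. There were 24 higher and 14 lower calls in the first panel, 25 and 48 in the second, and 78 and 97 in the third.

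After 4 days with Tx, few lincRNA entries had moved, and the largest rises were on chromosomes X and 1. In fl/Y +Tx over fl/Y -Tx, 24 of 3089 entries (0.777%) rose, where 1.74% of all names did, and 14 (0.453%) fell, where 0.752% of all names did. Both shares were below the background of the array. The risers had a median fitted fold of 3.40, or of 2.55 with the 9 whose fl/Y -Tx arrays were all at background taken at their bound. For the fallers these medians were 2.29 and 2.21. At the bounds 6 of 24 risers and 0 of 14 fallers passed 4-fold. With slide as a block 27 rose and 18 fell, and on slide 1 alone 20 and 20. Without fl/Y +Tx replicate 1 the fallers were 29, and with normexp background correction, which shrinks dim signals, the counts were 7 and 2.

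The entry chrX:123303474-123305531 (forward) had log2 signals of -3.69, -6.15 and -6.19 in fl/Y -Tx and of -2.13, -1.39 and -1.76 in fl/Y +Tx. The groups did not overlap, and 1 of the 3 fl/Y -Tx arrays was above background. Its log2 fold change was 3.59 (SE 0.59, adjusted p = 0.00335), and its 3 measured probes gave 2.92 to 3.59. With slide as a block it was 3.22 and the adjusted p 0.0574, so that the call was lost. Its neighbours chrX:123295327-123300036 and chrX:123306246-123307974, also forward, were at least 2.6-fold higher and higher by 2.73 on the log2 scale, and the nearest array gene, 4932411N23Rik, lay 41798 bp from the first and was not called.

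On chromosome 1, chr1:87343550-87362900 had log2 signals of -2.44, -1.99 and -2.38 in fl/Y -Tx and of 1.0, 0.92 and 1.11 in fl/Y +Tx. All 6 arrays were above background and the groups lay well apart, with a log2 fold change of 3.28 (SE 0.12, adjusted p = 4.47e-07), and the like region chr1:85117750-85129200 rose by 3.21 (adjusted p = 9.75e-07). Both calls held with slide as a block and on slide 1 alone, where 1 fl/Y +Tx array was set against 3 of fl/Y -Tx. The array gene nearest to the second, ENSMUST00000162453 at 8605 bp, rose by 3.89. Measured probes gave 1.24 to 3.28 in the first region and 1.41 to 3.99 in the second.

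The forward entry chr12:89092175-89105525, which covers the gene model Gm7104, had log2 signals of -4.91, -5.27 and -5.70 in fl/Y -Tx, none of them well above background, and of -2.65, -2.34 and -2.51 in fl/Y +Tx. It was at least 3.15-fold higher (adjusted p = 4.66e-05), and Gm7104, on the same strand, rose by 2.92 on the log2 scale. Near Gm17019 on chromosome 5, the forward entry chr5:14996031-15035334 was at least 2.13-fold higher. The forward entry chr5:15033568-15033987, which lies inside that region, rose by 2.16 on the log2 scale, with 0.52 to 2.16 over 3 probes. Gm17019, on the reverse strand, rose by 1.5. The other named risers were chr4:35106125-35127700 (reverse), at least 2.52-fold higher, and chr10:18104309-18104881 (forward), at least 2.25-fold higher. On slide 1 alone, 3 of these 10 risers kept the call: the chromosome 1 pair and chr12:89092175-89105525.

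TSIX was the symbol-bearing entry that changed at 4 days. Tsix RNA is made antisense to Xist and represses it. The TSIX entry had log2 signals of -0.25, -0.17 and -0.19 in fl/Y -Tx, 0.90, 0.90 and 1.07 in fl/Y +Tx and -0.26, -0.16 and -0.18 in KO/Y ES cells. The fl/Y +Tx arrays lay above both other groups, which overlapped. Its log2 fold change was 1.16 (SE 0.07, adjusted p = 1.28e-05) in fl/Y +Tx over fl/Y -Tx, -1.16 (adjusted p = 1.5e-05) in KO/Y over fl/Y +Tx and 0.00 (adjusted p = 0.983) in KO/Y over fl/Y -Tx. Its 5 probes, which lie between 100679738 and 100680103, past the end of the XIST entry, gave 1.04 to 1.35 in the first comparison, and the array's own Tsix probe gave 0.71 (adjusted p = 0.000354), under the 2-fold limit. The XIST entry, chrX:100655711-100678572 on the reverse strand, was at 0.34 (SE 0.08, adjusted p = 0.0141), and was not called.

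Of the fallers at 4 days, chr1:53215418-53244461 (reverse) had log2 signals of -3.28, -3.27 and -3.80 in fl/Y -Tx and of -5.57, -5.67 and -5.68 in fl/Y +Tx, where no array was well above background. It was at least 1.59-fold lower, a bound under the 2-fold limit, and the adjusted p of 3.68e-05 is that of the fitted 4.57-fold fall. The gene 1700019A02Rik, which lies inside it on the same strand, fell by 1.71. The forward entry chr2:71205705-71226510 was measured on all arrays, at -0.22, -0.21 and -0.08 in fl/Y -Tx, -1.79, -1.88 and -2.04 in fl/Y +Tx and -1.12, -0.94 and -1.02 in KO/Y ES cells. It fell by 1.73 at 4 days (adjusted p = 3.75e-06), and the KO/Y arrays lay between the other groups. The forward entry chr6:122341396-122342710 fell by 1.54 and 1700063H04Rik inside it by 1.28, with probes that share 34 bases in a row. Other named fallers were chr10:24269317-24270145 (reverse), at -1.91, and chr11:97457180-97487074 (reverse), at -1.10, whose 4 probes ran from -1.10 to -0.01.

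Between 4 days and several passages, more lincRNA entries were called lower than higher, the reverse of the array as a whole at the 2-fold limit. In KO/Y over fl/Y +Tx, 25 of 3089 entries (0.809%) rose, where 2.37% of all names did, and 48 (1.55%) fell, where 1.02% of all names did. With adjusted p under 0.05 and no fold limit there was no reversal. Then 5.83% of lincRNA entries were higher and 9.68% lower, beside 12.2% and 14.1% of all names. The median fitted fold was 2.6 for risers and 2.37 for fallers, and 2.3 and 2.22 with entries at background in the lower group taken at their bound. On slide 2 alone, with 2 fl/Y +Tx arrays, 29 rose and 42 fell, and with normexp background correction the counts were 4 and 6.

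The chromosome X family held 4 of the 6 largest falls. Its first region, chrX:120590872-120598071, had log2 signals of -2.01, -2.47 and -2.01 in fl/Y -Tx, -1.89, -1.71 and -1.90 in fl/Y +Tx and -4.27, -4.03 and -4.57 in KO/Y ES cells. The KO/Y arrays lay below all others, with a log2 fold change of -2.46 (SE 0.16, adjusted p = 2.92e-05). The regions starting at 120353972, 122184810 and 120812236 changed by -2.26, -2.09 and -1.87. In each, the change in fl/Y +Tx over fl/Y -Tx was between 0.32 and 0.38 and was not called. A second measured probe of the first region gave 0.20 in KO/Y over fl/Y +Tx, and one of the third gave -0.82. These are also copies, sharing 56 bases in a row with each other, so that 1 set of like probes in these regions measured falls of 1.87 or more on the log2 scale and the other set did not.

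A reverse entry on chromosome 13, chr13:19611679-19620954, was lower in each later group. Its log2 signals were 1.36, 1.29 and 1.38 in fl/Y -Tx, 0.68, 0.69 and 0.64 in fl/Y +Tx and -1.52, -1.73 and -1.28 in KO/Y ES cells. The 3 groups did not overlap, and the log2 fold changes were -0.68 (adjusted p = 0.00241), -2.18 (adjusted p = 6.58e-06) and, from fl/Y -Tx to KO/Y, -2.86 (SE 0.10, adjusted p = 2.25e-07). Its 5 measured probes gave -2.86 to -1.09 in KO/Y over fl/Y -Tx. The nearest array gene, 9330199G10Rik at 53982 bp, changed by -0.37 and was not called.

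A reverse entry on chromosome 18 between 69923410 and 69965360 was called lower at each stage. Its log2 signals were -1.19, -1.10 and -1.26 in fl/Y -Tx and -2.40, -2.21 and -2.37 in fl/Y +Tx, and no KO/Y array was well above background. KO/Y ES cells were at least 3.9-fold lower than fl/Y +Tx and at least 8.62-fold lower than fl/Y -Tx. Its nearest array gene, Tcf4, which encodes a basic helix-loop-helix factor, lay 75789 bp away and changed by 0.16 in KO/Y over fl/Y -Tx.

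Several risers of this stage were dim. The forward entry chr3:27757764-27757922 had log2 signals of -5.47, -5.86 and -6.62 in fl/Y +Tx, none well above background, and of -4.10, -3.62 and -3.72 in KO/Y ES cells. It was at least 1.23-fold higher, a bound under the 2-fold limit. Its adjusted p of 0.000593 is that of the fitted 4.5-fold change, which rests on fl/Y +Tx signals at background. The reverse entries chr16:91174611-91200786, chr2:35828611-35838083 and chr5:125713450-125735500 were higher by at least 1.66-fold, 1.74-fold and 1.39-fold. In none of them was an fl/Y +Tx array above background. Of the 25 risers, 8 had no fl/Y +Tx array above background. The chromosome 1 pair rose again, by 1.77 and 1.76, from signals that were above background on all arrays.

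**Figure D3:**
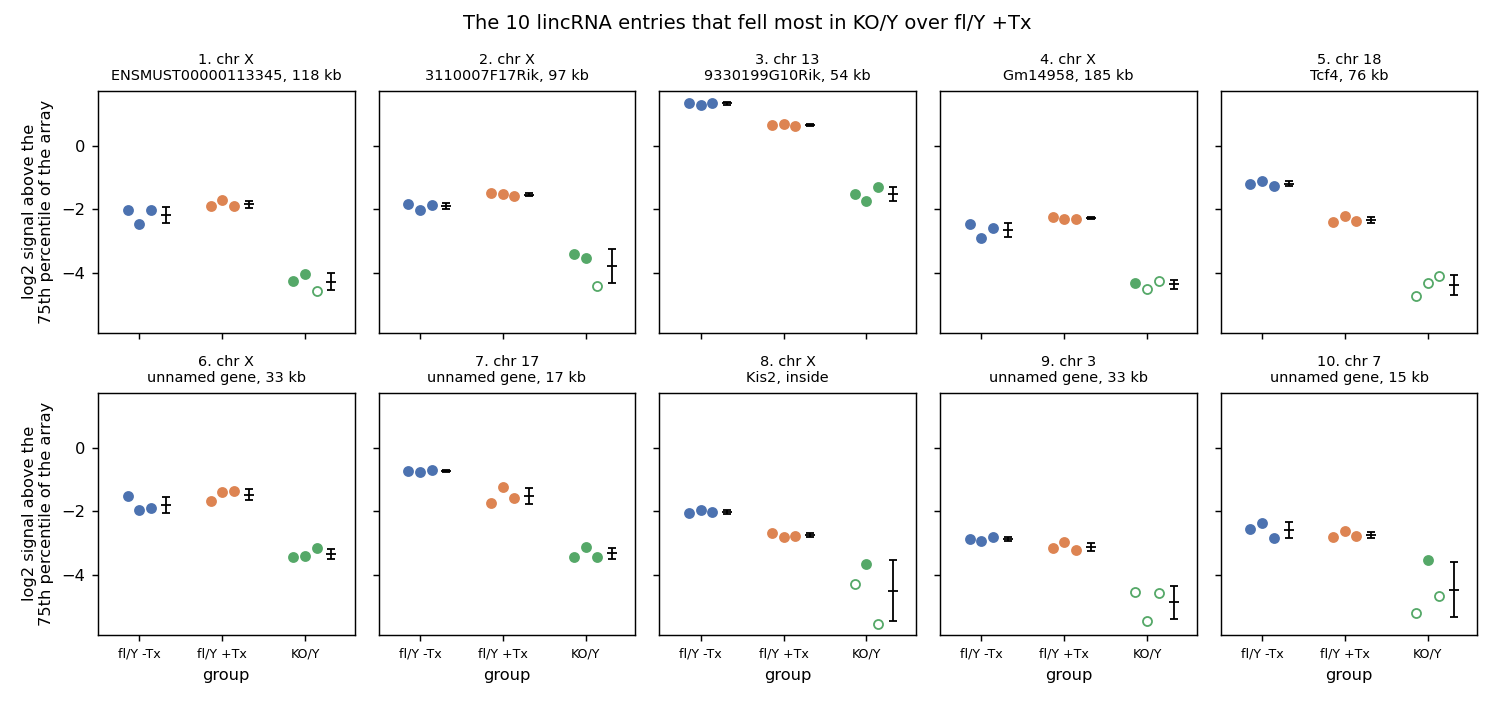
Log2 signal relative to the 75th percentile of each array (vertical axis) of the 10 lincRNA entries with the largest fitted falls in KO/Y over fl/Y +Tx, by array in the 3 groups; open points were not well above background, and bars give the mean and SD of 3 arrays. In the 4 chromosome X family members, fl/Y -Tx and fl/Y +Tx arrays lie close together and the KO/Y arrays below them, while the chromosome 13 and 18 entries are lower in each later group.

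Several passages after the deletion, more lincRNA entries fell than rose against undeleted cells. In KO/Y over fl/Y -Tx, 78 of 3089 entries (2.53%) rose, where 4.73% of all names did, and 97 (3.14%) fell, where 2.82% of all names did. Of the other names, 5.08% rose and 2.76% fell. The median fitted fold was 2.42 for risers and 2.49 for fallers, or 2.24 and 2.40 at the bounds, and 13 and 8 passed 4-fold at the bounds. The groups did not overlap for the 78 risers and for 96 of 97 fallers. Such separation mostly follows from the call itself, and its share among all called names was not counted. With slide as a block, which reaches this comparison only through the fl/Y +Tx arrays, 79 rose and 85 fell. With normexp background correction the counts were 20 and 30.

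The largest rises were on chromosomes X and 1. In chrX:123303474-123305531 the KO/Y arrays stood at -0.29, -0.33 and -0.20, a log2 fold change of 5.07 over fl/Y -Tx (SE 0.59, adjusted p = 0.00018). Only 1 of its 3 fl/Y -Tx arrays was above background, so this fitted rise and its rank rest partly on background signals. The KO/Y arrays of chr1:87343550-87362900 stood at 2.76, 2.86 and 2.72, 33.1-fold above fl/Y -Tx (adjusted p = 1.79e-08), and the like region chr1:85117750-85129200 was 31.4-fold higher. ENSMUST00000162453, next to the latter, rose by 6.01 on the log2 scale. The single-probe entry chr1:87348082-87409907, which overlaps the first, was at least 6.06-fold higher.

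The other chromosome X entries of this run followed the first. The entry chrX:123295327-123300036 was at least 7.70-fold higher, and chrX:123306246-123307974 rose by 4.03 on the log2 scale. Further entries of the leading 10 were chr12:89092175-89105525, at least 5.33-fold higher, chr4:35106125-35127700, at least 5.93-fold higher, chr5:14996031-15035334, at least 4.90-fold higher, and chr5:15033568-15033987, at 3.03. The 3 measured probes of the last ran from 0.77 to 3.03. Gm7104 rose by 4.41 and Gm17019 by 1.32. The summed level of the 2-cell-like markers was higher in the same groups (3.21 to 3.45, 6.63 to 6.85 and 7.34 to 7.53), and its part in these rises was not tested.

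**Figure D4:**
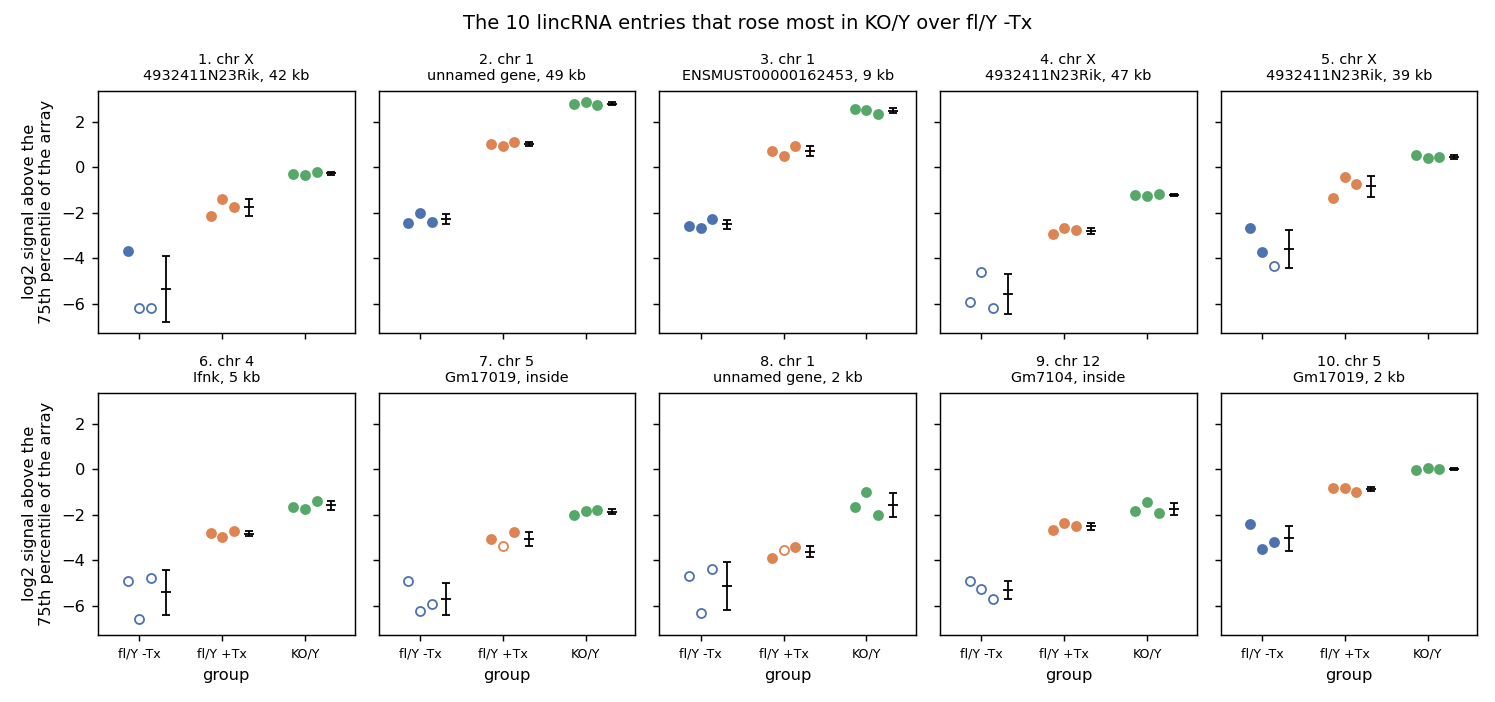
Log2 signal relative to the 75th percentile of each array (vertical axis) of the 10 lincRNA entries with the largest fitted rises in KO/Y over fl/Y -Tx, by array in the 3 groups; open points were not well above background, and bars give the mean and SD of 3 arrays. The fl/Y -Tx arrays lie lowest, and in 5 of the 10 entries none of them is above background.

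Of the fallers, the chromosome 18 entry and chr13:19611679-19620954 are given with the stage before. The reverse entry chr2:10237649-10287591 had log2 signals of -2.16, -2.77 and -2.57 in fl/Y -Tx and no array well above background in either other group. KO/Y ES cells were at least 3.67-fold lower (adjusted p = 3.09e-06). The short reverse entry chr17:24157887-24158104 was measured on all arrays, at -0.72, -0.74 and -0.69 in fl/Y -Tx, -1.74, -1.22 and -1.56 in fl/Y +Tx and -3.45, -3.13 and -3.43 in KO/Y ES cells. Its groups did not overlap, and it fell by 2.62 (SE 0.13, adjusted p = 1.89e-06). The reverse entry chr1:115787961-115860711 was at least 5.04-fold lower, and its nearest array gene lay 2010671 bp away. The forward entry chr5:74341387-74342056 and the reverse entry chr9:70017793-70045355 were also named, the first at -2.12 and the second at least 2.85-fold lower. With slide as a block the first was at -1.85 with adjusted p = 0.215, and the call was lost. The 3 measured probes of the second ran from -2.53 to 0.58.

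The reverse entry chrX:50087925-50101700 covers the noncoding transcript Kis2 on the same strand. It had log2 signals of -2.06, -1.96 and -2.03 in fl/Y -Tx, -2.68, -2.80 and -2.78 in fl/Y +Tx and -4.31, -3.67 and -5.55 in KO/Y ES cells, where 1 of 3 arrays was well above background. The KO/Y arrays lay below the others and spread widely. It fell by 2.50 (SE 0.38, adjusted p = 0.000828), and its 6 measured probes gave -3.01 to -1.44. With slide as a block the adjusted p was 0.055, and the call was lost. The opposite strand of the region changed by 0.10.

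Of the 12 entries with a symbol, 10 were tested. NEAT2, the Malat1 region, had log2 signals of 2.35, 2.37 and 2.43 in fl/Y -Tx, 2.28, 2.32 and 2.37 in fl/Y +Tx and 1.28, 1.21 and 1.34 in KO/Y ES cells. The KO/Y arrays lay below both other groups, and it fell by 1.11 from fl/Y -Tx to KO/Y (SE 0.06, adjusted p = 2.53e-06), with -1.11 to -1.10 over 3 probes. NEAT1, the scaffold of paraspeckles, which lies near it on the same strand, changed by -0.16 (adjusted p = 0.0746). BRN1-A was called higher in KO/Y over fl/Y -Tx, from signals that were not well above background before KO/Y. It was at least 1.81-fold higher, a bound under the 2-fold limit. Its adjusted p of 0.00121 is that of the fitted 3-fold change, from 1 measured probe of 4.

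H19, an imprinted RNA expressed from the maternal allele, stood at 5.12 to 5.30 in fl/Y -Tx and at 6.0, 6.0 and 6.02 in KO/Y ES cells. It was 1.70-fold higher (adjusted p = 3.85e-05), under the 2-fold limit, with 0.77 to 0.84 over 5 probes. Summed fibroblast markers were 9.09 to 9.12 and 9.52 to 9.68 in the same groups, and their part was not tested. HOTAIR was at -0.52 (adjusted p = 0.0295) from 1 measured probe of 5, TUG1 at 0.08, NRON at -0.01 and XIST at 0.33, none of them called. The 3 measured probes of NRON ran from -0.30 to 1.22. KCNQ1ot1 is the symbol of a forward entry, and it names the antisense RNA of the Kcnq1 imprinted domain. The entry was at 0.16, and its 3 probes ran from -0.53 to 0.16. The array's own Kcnq1ot1 probe, placed on the reverse strand, was at -0.79 (adjusted p = 2.91e-05), under the 2-fold limit. The 0.16 of the entry thus does not stand for RNA of the reverse strand. PINC and lincP21 had no probe above background on all arrays of a group.

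Where an entry was read by more than 1 measured probe, the probes of called entries mostly had 1 sign. All probes had the same sign in 16 of 16 such risers and 8 of 8 fallers in fl/Y +Tx over fl/Y -Tx, in 13 of 13 and 31 of 33 in KO/Y over fl/Y +Tx, and in 41 of 45 and 54 of 57 in KO/Y over fl/Y -Tx. Among entries not called, the share was 55.8%, 53.3% and 57.9%. Called entries were selected for a large change in 1 of the probes compared, so this difference is no test of the calls. All probes passed 2-fold in 12 of 16 risers and 3 of 8 fallers at 4 days, in 12 of 13 and 15 of 33 in KO/Y over fl/Y +Tx, and in 24 of 45 and 28 of 57 in KO/Y over fl/Y -Tx. The call is that of the brightest probe. Probes of an entry share their target and are not replicates.

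Few regions were called on both strands. In 625 regions both strands were tested, and in KO/Y over fl/Y -Tx both rose in 1, both fell in 4, 1 moved in opposite directions, and 52 had a call on 1 strand. Whether the strands differed in those 52 was not tested. Regions with both strands lower included chr10:62262341-62271961, next to Tet1, and chr2:174088550-174109425, over Nespas. In the latter, at the imprinted Gnas locus, the forward entry fell by 1.19 and the reverse by 1.32, and the Nespas probe was at -0.97, which is short of the 2-fold limit. The region with opposite calls, chr7:114369337-114407862, had forward signals of -2.55, -2.37 and -2.85 in fl/Y -Tx and -5.22, -3.53 and -4.68 in KO/Y ES cells, and reverse signals of -2.46, -2.07 and -2.23 and then -1.07, -1.04 and -0.99. The forward entry fell by 1.89 (adjusted p = 0.00273) and the reverse entry rose by 1.22 (adjusted p = 2.16e-05).

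Some called entries lay next to each other. Entries called in the same direction within 100 kb of one another formed 10 runs of risers, with 24 of the 78, and 10 runs of fallers, with 24 of the 97, in KO/Y over fl/Y -Tx. Runs of risers included the 3 chromosome X entries with the largest rises and those near Gm17019 on chromosome 5. Entries of a run can overlap, share bases or be both strands of the same region, so they are not independent. The share of all tested entries lying this close to another was not counted, so these counts cannot show whether calls cluster.

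Some called entries lay beside a gene that was called the same way. The nearest array gene within 100 kb was used where it was tested. For risers of fl/Y +Tx over fl/Y -Tx this was 7 of 20, against 1.81% beside all 2263 tested entries with such a gene, and for fallers 2 of 12, against 0.928%. For KO/Y over fl/Y +Tx it was 3 of 16 risers, against 1.90%, and 0 of 36 fallers, against 0.486%. For KO/Y over fl/Y -Tx it was 10 of 59 risers, against 3.84%, and 22 of 75 fallers, against 3.67%. Where genes inside the region were left out, the counts became 3 of 19 risers and 0 of 12 fallers at 4 days, against 1.26% and 0.542% beside all such entries. For KO/Y over fl/Y -Tx they became 4 of 50 and 11 of 72, against 3.57% and 3.21%. In 7 of the 32 pairs of this comparison the probes shared at least 25 bases in a row, and 24 of 32 were on the same strand, and whether such probes read 1 transcript was not tested. Some genes were counted more than once, through several entries of 1 locus. In KO/Y over fl/Y -Tx these were Tet1, Gm10664, Malat1 and 2010204K13Rik among fallers and Gm17019 among risers. Gm17019 was also repeated among risers at 4 days. The pairs are therefore not independent, and their counts are given with no test.

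**Figure D5:**
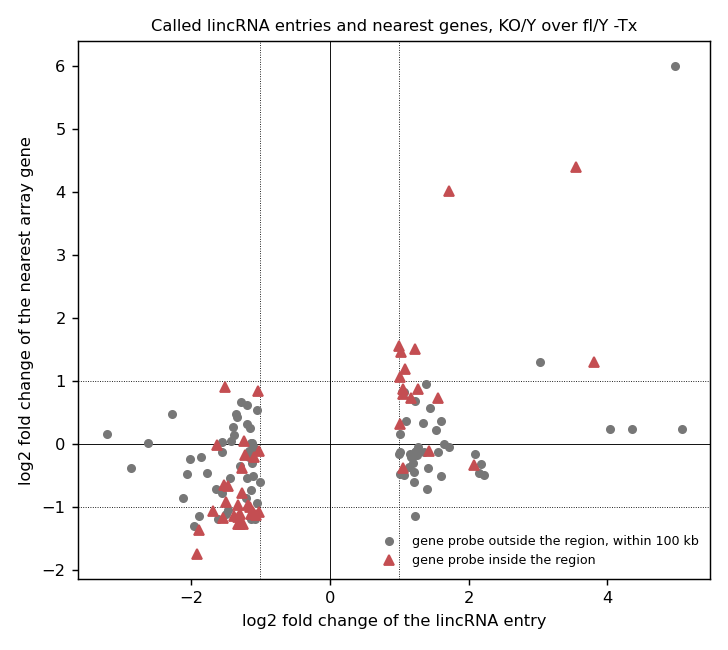
Log2 fold change of called lincRNA entries in KO/Y over fl/Y -Tx (horizontal axis) against that of the nearest tested array gene (vertical axis); triangles are genes inside the region and circles are genes outside it within 100 kb. In 10 risers and 22 fallers the gene was called in the same direction, and in 1 riser it was called in the other.

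Several called entries lay near regulators of ES cells, whether or not the gene was called. They were chosen after their values were seen, except the first, which the naming rule gave. The reverse entry chr1:13058312-13099826, 3729 bp from Prdm14, a zinc finger factor of naive pluripotency and germ cells, had log2 signals of -2.23, -2.20 and -1.90 in fl/Y -Tx, -2.97, -2.47 and -2.58 in fl/Y +Tx and -3.48, -3.19 and -3.84 in KO/Y ES cells. It fell by 1.39 (SE 0.19, adjusted p = 0.000386), with -1.88 to -0.6 over 5 probes, while Prdm14 was at 0.28 and was not called. It was the only called one of 11 tested entries nearest to a gene of a pluripotency list, and 0 of 5 nearest to germ layer regulators were called. No entry was nearest to a gene of the 2-cell or primitive endoderm lists.

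Beside Tet1, which oxidises 5-methylcytosine, the reverse entry chr10:62267317-62269871 had log2 signals of 2.53, 2.56 and 2.57 in fl/Y -Tx, 2.32, 2.35 and 2.63 in fl/Y +Tx and 1.52, 1.40 and 1.49 in KO/Y ES cells. It fell by 1.08. Of the region around it, the reverse strand fell by 1.14 and the forward strand was at least 1.56-fold lower, and Tet1, on the reverse strand, fell by 1.18 (adjusted p = 8.04e-06). The reverse entry chr8:91471819-91551119 lies 159 bp from Sall1, a zinc finger gene of ES cells on the same strand. It stood at -1.43, -1.35 and -1.13 in fl/Y -Tx and at -3.75, -2.66 and -3.38 in KO/Y ES cells and fell by 1.96 (adjusted p = 0.000303), and Sall1 fell by 1.29. In this pair and beside Tet1 the entry and the gene moved the same way on the reverse strand, and beside Prdm14 they did not.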

How the data were processed

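The authors hybridised RNA of 3 groups, with 3 arrays each, to Agilent mouse arrays and deposited the scanner intensity of each spot (Cy3 processed signal, per the file headers), made with Agilent Feature Extraction 10.7.3.1. They analysed the arrays with NIA Array Analysis Software, with settings not given in the sources used here. The deposited value table was used only as an alternative. Probe positions are those of the files, in mm9.

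Members were found by the prefix lincRNA: at the start of the description, since 0 gene names carry it. The members, lists and tests were chosen with earlier results of these data known. Outlier spots were left out, spots of a probe averaged, log2 intensity taken minus the 75th percentile of each array, and probes kept if well above background on all 3 arrays of a group. The brightest kept probe stood for each name. The 9 arrays entered 1 limma fit (limma 3.58.1, R 4.3.3), with Benjamini-Hochberg adjustment over 22336 names, and calls needed over 2-fold and adjusted p under 0.05. Where a group had no array above background, the fold is a lower bound against the lowest signal above background on each array. The adjusted p printed beside such a bound is that of the fitted change, and the bound itself can lie under 2-fold. Named entries are the 10 largest fitted rises and falls (not ranked at their bounds) per comparison among called entries whose groups do not overlap, and called entries nearest to listed genes. Others are said to be chosen after seeing values. The number of arrays limits the precision. Figures used matplotlib 3.10.9.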

Additional observations from a re-analysis of the deposited data

How the results depend on the processing

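Counts are given for risers, then fallers. With normexp background correction, which moves dim signals closer together, 7 lincRNA entries rose and 2 fell in fl/Y +Tx over fl/Y -Tx, 4 and 6 in KO/Y over fl/Y +Tx, and 20 and 30 in KO/Y over fl/Y -Tx. A requirement of detection on all 9 arrays gave 10 and 7, 4 and 22, and 34 and 54. A test against 2-fold itself gave 8 and 2, 2 and 9, and 18 and 22. With no fold limit the counts were 209 and 225, 180 and 299, and 319 and 508. Counting entries with any called probe gave 56 and 40, 55 and 99, and 145 and 168. A floor under dim signals gave 15 and 9 in the first comparison, 28 fallers in the second and 48 risers in the third. The mean of kept probes gave 38 risers in KO/Y over fl/Y +Tx. Without the detection filter, and in the authors' value table, fallers of fl/Y +Tx over fl/Y -Tx were 22. Leaving out 1 array at a time gave 23 to 26 and 12 to 29, 22 to 28 and 46 to 54, and 63 to 80 and 93 to 111, with 29 reached without fl/Y +Tx replicate 1. The scanner's other detection call, signal above 0 with significance, gave 58.6%, 55.6% and 57.3% of lincRNA probes. Without genes inside the region, neighbours called the same way were 3 and 0 for risers and fallers at 4 days, 1 for risers of KO/Y over fl/Y +Tx, and 4 and 11 for KO/Y over fl/Y -Tx, and without neighbours that share 25 bases in a row, 1 for fallers at 4 days. That choice, and leaving out entries whose probe shares 25 bases with another name (20 and 12, 21 and 42, 66 and 79), was made after seeing the data. Over the 61 values of named entries, 1339 recomputed values had 0 changes of direction and 106 lost the call, of which normexp took 34. Where the cause is not in the setting itself, it was not tested. No paired analysis was possible because no label ties an array to a replicate number, and the numbers used here follow slide positions. The slide could not be used alone for KO/Y over fl/Y -Tx, which share none. Data with known changes were drawn on 22336 names, with independent noise of the fitted spread and no slide effect or background floor. There, 97, 95 and 92 of 100 lincRNA entries changed by 3-fold were called in the 3 comparisons. Of 100 changed by 1.5-fold, 47, 30 and 35 passed adjusted p under 0.05 and 0 were called, which the 2-fold limit largely sets. Recovery of entries at background in a group was not tested.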

Other observations

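Some long noncoding RNA genes are named on the array by symbol, apart from the lincRNA entries. Of 31 listed, 23 were on the array and 22 were tested. At adjusted p under 0.05 and over 2-fold with limma, 0 were called in fl/Y +Tx over fl/Y -Tx, 0 in KO/Y over fl/Y +Tx and 2 in KO/Y over fl/Y -Tx, both lower: Malat1 (-1.07, adjusted p = 9.93e-06) and Mir17hg, the host of the miR-17 cluster (-1.12, adjusted p = 2.92e-06). Of all names, 2.82% were called lower there. Both genes are read by the same 60 bases as a lincRNA entry, so they are not separate from the entries. Their medians were -0.01, -0.11 and -0.16 on the log2 scale, beside -0.07, 0.01 and -0.06 over all names tested. In KO/Y over fl/Y -Tx, Airn was at 0.78, Peg13 at 0.74 and Kcnq1ot1 at -0.79, none of them called.

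By chromosome, 5 of the 14 fallers of fl/Y +Tx over fl/Y -Tx and 14 of the 97 of KO/Y over fl/Y -Tx were on chromosome 2, which held 208 of the 3089 tested entries. Chromosome X held 116 tested entries, with 4 of the 24 risers at 4 days and 11 of the 97 fallers in KO/Y over fl/Y -Tx, some of which are read by copied probes. Both chromosomes were picked after the counts were seen, and the share of all names called on each chromosome was not counted. No test was made of these counts.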
